A study of Mus musculus with 44 samples.

Results

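The Thy subpopulation (THY) is 1 of 8 skeletal cell populations that were sorted from the long bones of wild type C57Bl6 mice at postnatal day 3 (P3), all without treatment. THY was represented by 4 of the 44 libraries of the series, chosen by their sample titles: 2 from RNA pulled down with an antibody against N6-methyladenosine (m6A), called IP, and 2 from RNA that was not pulled down, called input. The 8 populations were the stem and progenitor cells SSC, pBCSP and BCSP and their descendants PCP, THY, BLSP, 6C3 and HEC, each with 2 IP and 2 input libraries of wild type. In the gating scheme that the study followed, THY cells carry CD51 (the product of Itgav) and Thy1 and lack 6C3 (the product of Enpep), and blood and endothelial cells are removed by CD45 (Ptprc), Ter119 and Tie2 (Tek). The study states that cells of 1 sorted batch were divided between the m6A profile and RNA-seq. Libraries of 1 replicate number were therefore taken as a pair, although the labels do not state that they share a batch. The study names the replicates biologically independent experiments, and the number of mice behind a library is not given in the sources used here.

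m6A is set on nascent mRNA by a complex of METTL3, METTL14, WTAP and further subunits, is bound by YTH proteins and is known to shorten the life of many transcripts. Its consensus is short, with GGACT in DNA letters as the most common form, and maps from other mammalian cells show it most densely in long internal exons and around stop codons, with ribosomal protein mRNAs among those that carry little of it. SLIM-seq is a pull-down for very small amounts of RNA. No fragmentation of the RNA before the IP is described, and cDNA was cut after amplification, so the ratio of IP to input is 1 value for a whole gene. The ratio is relative to the other transcripts of a library and covers all RNA kept on the beads, and no IP with a control antibody was analysed here. A gene is called enriched where the log2 fold change (IP over input) exceeds 1 and depleted where it is below -1, each at a Benjamini-Hochberg adjusted p under 0.05 in edgeR's quasi-likelihood test with the replicate pair as a block.

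The markers of the sort and Mgp were read first. Mgp, an inhibitor of mineralization made by connective tissue cells, was given for this part of the series and is not an antigen of the sort. It had 210.5 and 181 CPM in the input, where CPM is the count relative to library depth, scaled with TMM. Its input level was not compared with that of other populations here. Thy1 itself had 22.9 and 35.3 CPM in the input and Itgav 77.5 and 113 CPM, while Enpep had 8.60 and 4.85 CPM. Ptprc was near 0 in the input, with counts of 6 and 13, and Tek was read at 6.13 and 6.72 CPM. Cd200 and Eng, the other antigens stained, had 8.04 and 9.38 CPM and 87.0 and 107 CPM. Of the 7 antigens and sort markers tested, Ptprc, Thy1 and Itgav were called enriched by the IP, and 1 of the 7 was without replicate 1. The 17 genes of the blood cell list were present at a low level, summing to 117 and 59.1 CPM in the input and 426 and 141 CPM in the IP. The globin gene Hba-a1 had 40.1 and 9.27 CPM in the input and 165 and 33.9 CPM in the IP libraries, so replicate 1 held more of it in both. Mpo and Elane of the same list went the other way, with more in replicate 2. Mpo had 0.281 and 8.90 CPM in the input and 0.216 and 4.69 CPM in the IP libraries. Elane had 0 and 5.20 CPM in the input and 0.971 and 10.8 CPM in the IP libraries. Cd3e was at 0 in all 4 libraries, and Cd79a and Itgam held at most 9 counts in any. Of this list 14 genes were tested, 7 were enriched and 0 depleted, and the enriched count was 3 without the replicate block, 2 without replicate 1 and 4 without replicate 2. Over all genes 10.1% were enriched. In a bulk sample, fewer cells of a type and less RNA per cell cannot be told apart. Of the 7 endothelial genes tested, 0 were called in either direction, and Emcn, Cldn5 and Cdh5 held at most 16 counts in any library. The part of blood RNA in the enrichment of other genes was not tested.

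The input libraries held 19853970 and 42441203 counts and the IP libraries 19673841 and 19189364, so the second input was the deepest of the 4. Across the 15923 genes that passed the filter on low counts, log2 CPM correlated at 0.970 between the 2 input and at 0.881 between the 2 IP libraries, as a description across genes that share libraries. The log2 ratio of IP to input correlated at 0.545 between the pairs, and 76.9% of genes had the same sign in both. Both sets of replicates differed by more than sampling noise (chi-square divided by its degrees of freedom, 31.4 for input and 51.5 for IP), so each library counted as 1 sample. With 2 libraries against 2, an exact permutation test could not reach 0.05, so the p-values come from the model fitted across all genes.

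The IP kept some transcripts strongly and lost others in large numbers. Of 15923 genes tested, 1607 (10.1%) were enriched and 2271 (14.3%) depleted, and the enriched genes held 9.23% and 10.1% of the counts in the input libraries against 32.1% and 33.2% in the IP libraries. Depleted genes went the other way, from 26.3% and 26.0% of input counts to 8.65% and 8.59% of IP counts. At the thresholds of the study, a log2 fold change above 1 and an unadjusted p under 0.05, 1956 genes (12.3%) were called m6A-tagged. With 1 pair left out, each arm of THY is a single library that is assumed to vary like the other wild type populations. Counts of lists with a replicate left out come from such fits as well, so they do not compare directly with the main counts. The fits with 1 pair left out are set beside a single fit of all 32 wild type libraries. That fit called 1122 genes enriched and 2501 depleted with both pairs, 642 and 2140 without replicate 1, and 1039 and 1787 without replicate 2. Without the replicate block the counts were 1409 enriched and 1864 depleted. The median log2 fold change of all genes was -0.12 and depended on the scaling: with library size alone it was -0.28, and the share of calls that were enriched went from 41.4% to 31.8%. In the fit of all 32 libraries that share was 31%, with no filter on low counts 31.1% and without replicate 1 23.1%.

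**Figure D1:**
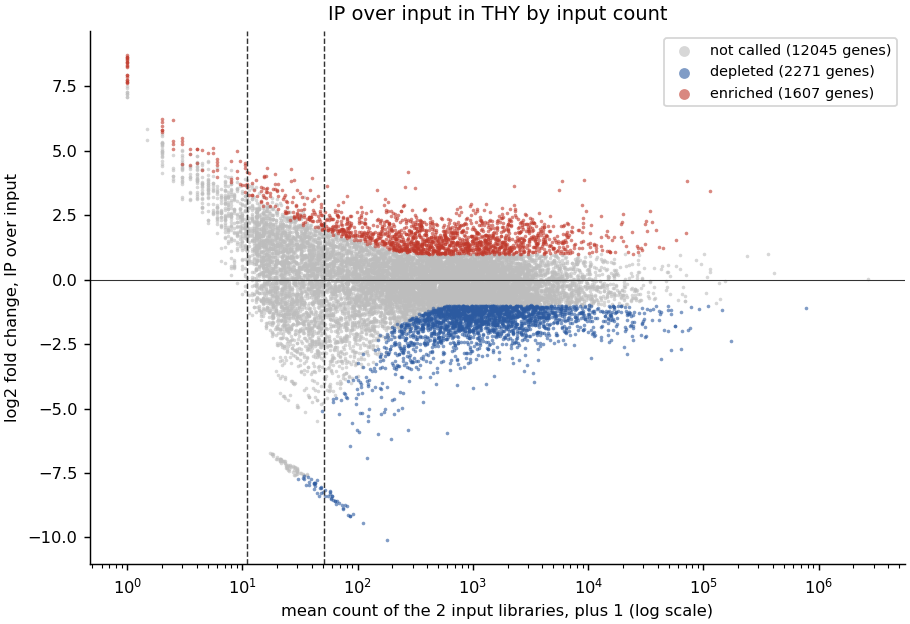
Log2 fold change of IP over input (y axis) against the mean count of the 2 THY input libraries plus 1 (x axis, log scale) for the 15923 genes tested, 1 point a gene. The dashed lines mark mean input counts of 10 and 50; above 50 lie 1416 of the 1607 enriched genes, the enriched genes at the upper left have hardly any input counts, and the separate band at the lower left holds genes with 0 counts in both IP libraries.

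The input counts divide the enriched genes sharply. A mean of at least 50 input counts, called ample input here, was reached by 12551 genes, of which 1416 (11.3%) were enriched and 2246 (17.9%) depleted. In those 1416 genes the median standard error of the log2 fold change was 0.27, and IP exceeded input in both pairs of each. Another 126 enriched genes had a mean input count from 10 to under 50, with a median standard error of 0.89. The remaining 65 enriched genes had a mean under 10 and a median standard error of 1.73 and are described apart, after the genes with more input. The call is easier to make for genes with many reads, so the shares are not comparable between the classes.

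Among protein-coding genes with ample input, Lars2, which encodes the leucyl-tRNA synthetase of mitochondria, had the largest log2 fold change. Its level was 179 and 182 CPM in the input and 1583 and 4099 CPM in the IP libraries, with log2 fold change 3.82, standard error 0.23, edgeR adjusted p = 5.08e-13. Both IP libraries stood far above both input libraries, but they differed between themselves, and the log2 ratio was 3.14 in pair 1 and 4.49 in pair 2. The gene (chromosome 9, 123366927 to 123462666, GRCm38) shares 22 sequences of 31 bases with Gm15564, counted so that they can overlap each other. The longest Lars2 transcript has 3894 bases. Gm15564 had the largest ratio among genes that are not protein coding and have ample input (log2 fold change 4.18, standard error 0.27, edgeR adjusted p = 1.26e-12). Reads from the shared bases cannot be assigned to one of the pair, so both values are uncertain to that extent. How many reads came from them was not measured.

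Mitochondrial RNA followed. The mitochondrial genome list had 13 of 17 tested members enriched and 0 depleted, with a median log2 fold change of 2.39 against -0.12 over all genes. Its summed level was 8045 and 9299 CPM in the input and 57636 and 72541 CPM in the IP libraries. The most read member was mt-Rnr2, the large ribosomal RNA of mitochondria, at 3114 and 3689 CPM in the input and 31538 and 42814 CPM in the IP libraries. The small one, mt-Rnr1, came after Gm15564 among genes that are not protein coding and have ample input (log2 fold change 3.88, standard error 0.18, edgeR adjusted p = 5.30e-16). Of the mRNAs, mt-Nd6 (3.64) and mt-Nd2 (3.49) came next after Lars2 among protein-coding genes with ample input. mt-Cytb (1.80), mt-Co1 (2.24) and mt-Nd1 (2.28) were among the 8 most read enriched protein-coding genes. mt-Nd6 lies on the other strand and overlaps mt-Nd5 at 1 end, and the counting is not stated to use strand, so reads of that overlap cannot be told apart. Cytosolic ribosomal RNA moved the same way: Rn18s-rs5, an 18S rRNA entry named here after its value was seen, made up 0.114% and 0.289% of the input counts and 1.65% and 3.27% of the IP counts.

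Ribosomal protein mRNAs were the nuclear-encoded list with the largest share of enriched members. Of 84 cytosolic ribosomal protein genes tested, 76 were enriched and 0 depleted, with a median log2 fold change of 1.93, and the list summed to 8856 and 9636 CPM in the input and 32984 and 29409 CPM in the IP libraries. The 3 most read were Rpl5 (log2 fold change 1.84, standard error 0.17, edgeR adjusted p = 1.03e-09), Rplp0 (1.07, standard error 0.17) and Rpl41 (2.2, standard error 0.19). Rpl41, the shortest of these with a coding length of 138 bases, was read at 244 and 296 CPM in the input and 1302 and 1171 CPM in the IP libraries, and its IP and input libraries did not overlap. Without replicate 1 the enriched count of the list was 66 and without replicate 2 it was 76. Genes of this list have many processed pseudogenes, and how reads with several matches were counted is not given in the sources used here, so single values are uncertain.

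The respiratory chain showed the same direction. Of 77 nuclear oxidative phosphorylation subunits tested, 53 were enriched and 2 depleted (median 1.65). The subunits of complex IV and complex I, Cox6a1 (1.76, standard error 0.19) and Ndufa13 (1.71, standard error 0.20), were among its 3 most read members, and the third, the ATP synthase subunit Atp5b, stood at -0.65 (standard error 0.18), short of the depletion threshold. Both depleted members, Sdha (-1.23) of complex II and Uqcrc1 (-1.43) of complex III, are named after their values were seen. Within the list the ratio followed the length of the coding sequence: the 52 enriched nuclear genes with ample input had a median coding length of 337.5 bases, the 20 not called 834 and the 2 depleted 1716. The rank correlation of coding length with log2 fold change over these 74 genes was -0.88, given as a description over genes that share their libraries. Mitochondrial ribosomal proteins had 31 of 76 enriched and 1 depleted (median 0.68), or 25 and 3 in the fit of all 32 libraries. The median was 0.55 in that fit and 0.35 without replicate 1. Mrpl42 was at 2.04, Mrps14 at 1.47 and Mrpl17, not called, at 0.88.

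The relation to coding length differed from list to list. Of the ER translocation and glycosylation list, 10 of 27 genes were enriched and 5 depleted. Dad1, a small subunit of the oligosaccharyltransferase, was at 1.93 (standard error 0.19), while Sec61a1, the channel of the translocon and chosen after its value was seen, was at -2.42 (standard error 0.20). The median coding length was 414.5 bases in the enriched and 1428 in the depleted members. Proteasome subunits had 3 of 38 enriched and 3 depleted, near or below the background, or 2 and 5 in the fit of all 32 libraries. Their median log2 fold change was -0.19 in that fit and -0.50 without replicate 1. Their log2 fold change also fell with coding length (rank correlation -0.85 over 36 genes). Translation factors stood near the background with 7 of 61 enriched and 5 depleted, 3 enriched in the fit of all 32 libraries, and a rank correlation with coding length of -0.18 over 61 genes. In other lists the sign was positive, with 0.64 over 16 Notch genes, 0.46 over 55 histone lysine methyltransferases and demethylases, 0.46 over 37 collagen chains and 0.32 over 87 chromatin genes. Eif1, which helps to choose the start codon, was at 1.40, Eef1a1 at 1.07, and Eif5a, not called, at -0.30.

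**Figure D2:**
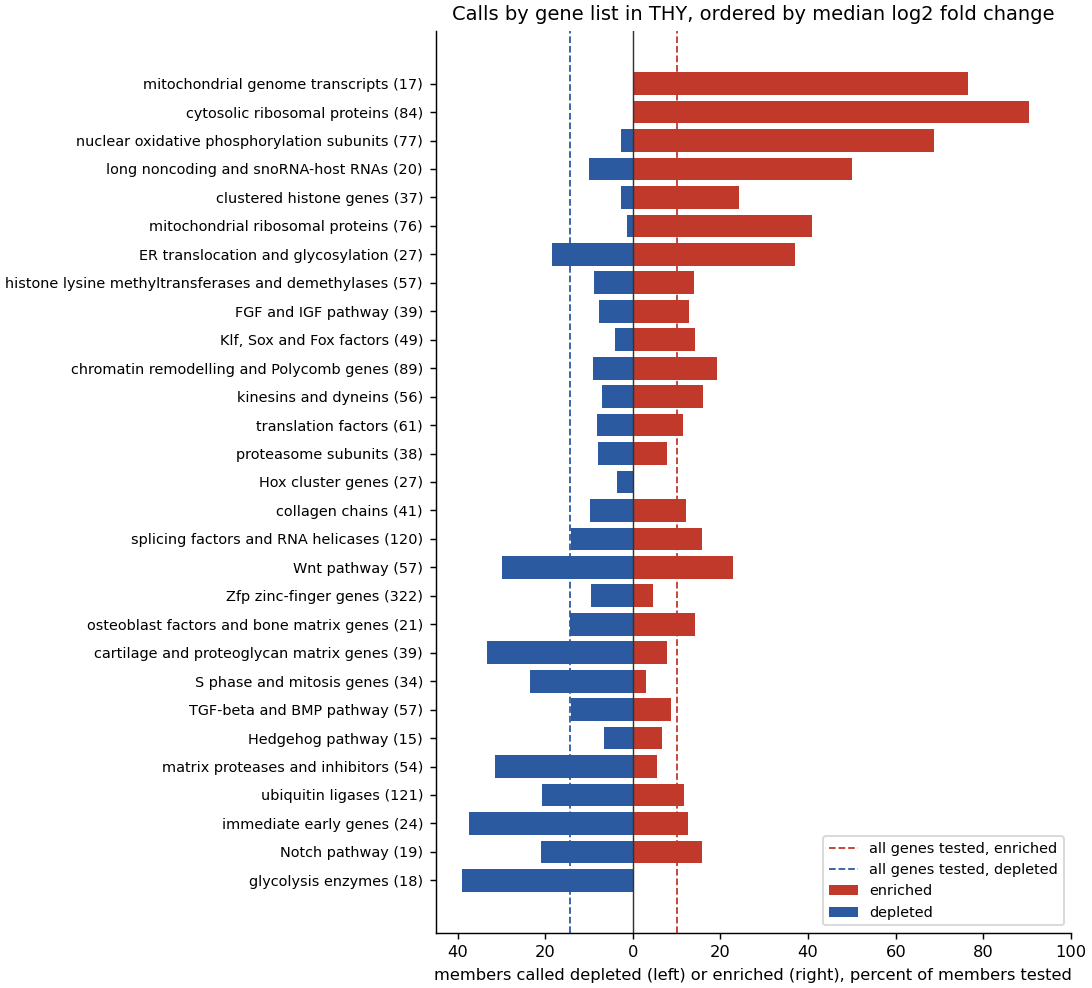
Share of the tested members of each list that were called depleted (bars to the left) or enriched (bars to the right), in percent, for lists with at least 15 tested members; the number tested is in brackets, and dashed lines mark the shares over all genes, 10.1% enriched and 14.3% depleted. Cytosolic ribosomal proteins (76 of 84), mitochondrial genome transcripts (13 of 17) and oxidative phosphorylation subunits (53 of 77) reach farthest to the right, and glycolysis enzymes (7 of 18), immediate early genes (9 of 24) and cartilage matrix genes (13 of 39) farthest to the left.

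The rest of the 10 largest ratios among protein-coding genes with ample input came from nuclear genes. Fhl3, a LIM protein of the actin cytoskeleton and of transcription complexes, was at 2.29 and 5.61 CPM in the input and 43.7 and 39.3 CPM in the IP libraries (log2 fold change 3.48, standard error 0.38, edgeR adjusted p = 3.28e-08). Pan3, a subunit of the deadenylase that starts mRNA decay, was at 21.0 and 34.2 CPM in the input and 213 and 203 CPM in the IP libraries (2.95, standard error 0.24). Pmepa1, a TGF-beta target that restrains Smad signalling, was at 28.5 and 45.9 CPM in the input and 267 and 288 CPM in the IP libraries (2.94, standard error 0.23). In each of these the IP libraries lay above the input libraries by several fold, with no overlap. The kinase Fn3krp (3.14), the transcription factor Mybl1 (3.00), metallothionein Mt2 (2.91) and Stfa1 (2.89), a stefin of the near-identical Stfa family whose reads could be split among copies, completed them.

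Mgp was enriched. Beside the 3 mitochondrial mRNAs, the 8 most read enriched protein-coding genes were Pam, Crip1, Ccl2, Lgals1 and Tubb5. Mgp was read at 210.5 and 181 CPM in the input and 898 and 786 CPM in the IP libraries and had log2 fold change 2.11, standard error 0.19, edgeR adjusted p = 7.31e-10. Pam, the enzyme that amidates peptide hormones, was at 910.1 and 1132 CPM in the input and 7083 and 5917 CPM in the IP libraries (log2 fold change 2.67, standard error 0.16, edgeR adjusted p = 5.97e-13). The LIM protein Crip1 went from 1054 and 1253 CPM to 4364 and 4267 CPM and the galectin Lgals1 from 1054 and 982 CPM to 4272 and 3328 CPM. Ccl2, a chemokine that draws monocytes, was at 1.23 (standard error 0.16) and the tubulin Tubb5 at 2.15 (standard error 0.17). Spry2, which dampens FGF receptor signalling, went from 355 and 422 CPM to 2406 and 1915 CPM, the largest ratio among the members named for the FGF and IGF list.

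**Figure D3:**
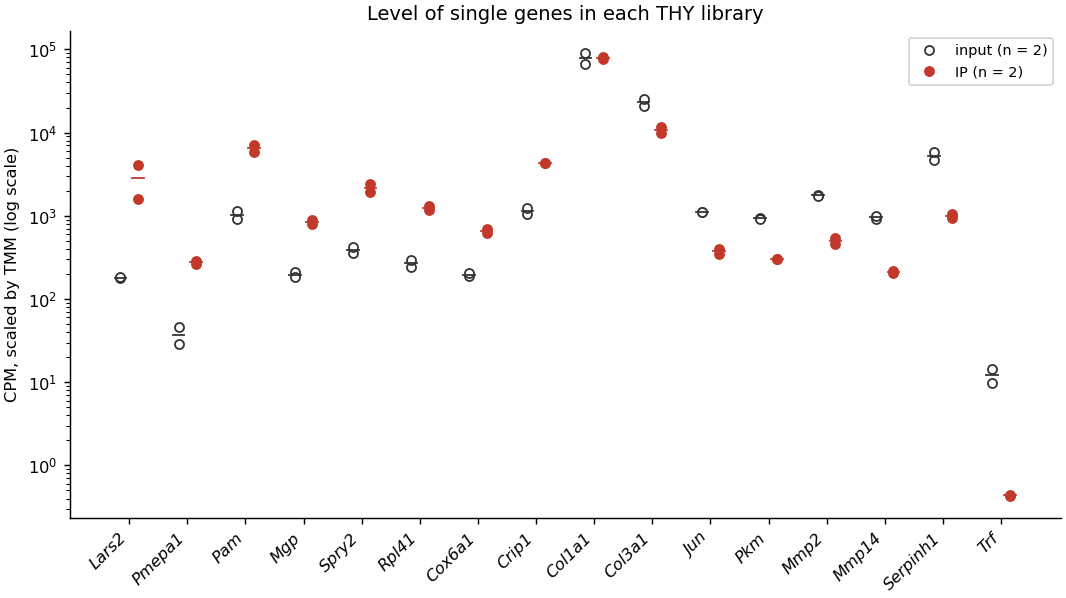
CPM scaled by TMM (y axis, log scale) of 16 genes in each THY library, with open points for the 2 input libraries, filled points for the 2 IP libraries and a bar at each mean. Lars2 to Crip1 lie higher in both IP than in both input libraries, Col1a1 overlaps between IP and input, and Col3a1 to Trf lie lower in both IP libraries; for Lars2 the 2 IP libraries stand apart from each other.

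Depletion reached 0 counts for some genes. In 51 depleted genes both IP libraries held 0 counts, 27 of them with ample input. The fold against a floor of 3 counts over both IP libraries was at least 11.1 to 67.8, with a median bound of 19.4. These genes passed the filter on low counts only through their input counts, so no other direction was open to them. The 10 lowest protein-coding genes with ample input, given next, all belong to them. Sapcd2, a regulator of spindle orientation, had counts of 102 and 258 in the input and 0 and 0 in the IP, at least 67.8-fold lower. Next came Pcdhac2 (73 and 149 in the input, at least 41.8-fold lower), a protocadherin whose exons are shared within its gene cluster. Dpysl5 had 75 and 94 in the input (at least 31.8-fold lower), and the integrin chain Itgb2, carried by white blood cells, had 75 and 88 (at least 30.7-fold lower). Fcgr3, an immunoglobulin receptor of the same cells, had 30 and 122 (at least 28.6-fold lower). For Thtpa, Chst8, Lrrc55, Ninl and Hkdc1, the rest of the 10 lowest, the bounds were 27.1 to 33.9. Their input counts did not exceed 133, so a library of this depth could show no smaller level in the IP than the floor, and the fitted fold changes of these genes are no bounds.

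Among highly read genes, depletion was smaller in fold but more precise. Serpinh1, the collagen chaperone HSP47, stood at 4633 and 5770.3 CPM in the input and 1051 and 931 CPM in the IP libraries (log2 fold change -2.39, standard error 0.16, edgeR adjusted p = 6.19e-12), the strongest depletion among the 8 most read depleted genes. Col3a1, the fibrillar collagen of soft connective tissue, was at 20832 and 25585 CPM in the input and 9878 and 11740.3 CPM in the IP libraries (-1.10, standard error 0.12). Lmna, which encodes lamin A and C, was at -1.19 (standard error 0.15), and Errfi1, an inhibitor of EGF receptors, at -1.87 (standard error 0.17). The matrix genes Fmod (-1.01), C1qtnf3 (-1.14), Tnc (-1.08) and Prelp (-1.26) made up the rest. Col1a1, the most read gene of all at 66358 and 89484 CPM in the input and 75773 and 80379 CPM in the IP libraries, was not called (log2 fold change 0.02, standard error 0.10, edgeR adjusted p = 0.918), and its direction changed with the setting. Col1a2, the partner chain, fell just short of the call at 0.99 (standard error 0.12).

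The lists on the depleted side were matrix, metabolic and fast-response genes, beside shares of 14.3% depleted and 10.1% enriched over all genes. Beyond the 3 most read members of each list, members named here were chosen after their values were seen. Of 39 cartilage and proteoglycan matrix genes, 13 were depleted and 3 enriched (median -0.27, and 0.00 with genes under a mean of 50 counts left out), and the counts were 8 depleted and 6 enriched of 38 with that filter, 10 and 6 by DESeq2, and 14 depleted with either replicate left out. Bgn (0.41), Aspn (0.98) and Dcn (0.29), its most read members, were not called. Matrix proteases and inhibitors had 17 of 54 depleted and 3 enriched (median -0.40; 1 enriched with either replicate left out), with the collagenase activator Mmp14 at 921 and 1001 CPM in the input and 208 and 215 CPM in the IP libraries (log2 fold change -2.18, standard error 0.19, edgeR adjusted p = 3.45e-10) and the gelatinase Mmp2 at -1.81 (standard error 0.17). Timp2, an inhibitor of both, was at 0.68 and was not called. The 3 enriched members were Adamts9, Timp1 and Adamts12. Glycolysis enzymes had 7 of 18 depleted and 0 enriched (median -0.78): Pkm was at -1.62 (standard error 0.18), Eno1 at -1.19 (standard error 0.17), and Ldha, not called, at -0.83. Without replicate 2, 1 of these enzymes was enriched.

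Immediate early genes, the transcription factors and feedback regulators switched on within minutes of a stimulus, were depleted in 9 of 24 and enriched in 3 (median -0.44). Over all genes 14.3% were depleted and 10.1% enriched. All genes of this list and of the S phase and mitosis list had ample input, where 17.9% were depleted and 11.3% enriched. Jun was at 1101 and 1117 CPM in the input and 343 and 404 CPM in the IP libraries (log2 fold change -1.57, standard error 0.18, edgeR adjusted p = 5.09e-08). Egr1 (-0.62, standard error 0.16) and Fos (-0.40, standard error 0.18) were below 0 but were not called. S phase and mitosis genes had 8 of 34 depleted and 1 enriched (median -0.28), and 5 were depleted without replicate 2. Of their 3 most read members none was called, among them Rrm2 (-0.65) and Ccnb2 (1.00). Ubiquitin ligases of the Cullin, HECT and Kelch families had 25 of 121 depleted (20.7%) and 14 enriched (11.6%). Of all genes with ample input 17.9% were depleted and 11.3% enriched. In the fit of all 32 libraries 10 of these ligases were enriched. Klhl21 was at -1.61 and Klhl9 at 1.88. The muscle list had 1 of 7 depleted, at the share over all genes, namely Des, the intermediate filament of muscle, at -3.23. Zfp zinc-finger genes had 31 of 322 depleted and 15 enriched, both below the shares over all genes. Their enriched count was 8 in the fit of all 32 libraries, 3 without replicate 1, 5 without replicate 2 and 23 with the filter at a mean of 50.

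Signalling lists held calls in both directions. The Wnt list had 13 of 57 genes enriched and 17 depleted, both above the shares over all genes, but 6 were enriched without replicate 1 and 8 without replicate 2, nearer to that share. The fit of all 32 libraries gave 9. The transcription factor Tcf7l2 was enriched (1.22), and the secreted antagonist Dkk3 was depleted (-1.28). Wif1, another antagonist, was at -0.93 and was not called. The Notch list had 3 of 19 enriched and 4 depleted: the receptor Notch2 was at 107 and 133 CPM in the input and 487 and 422 CPM in the IP libraries (1.93, standard error 0.20) and the ligand Jag1 at 1.61, while the target Hes1 was at 0.57 and was not called, and 2 genes of this list were depleted without the replicate block. In the TGF-beta and BMP list 5 of 57 were enriched and 8 depleted (5 without the replicate block; 3 enriched without replicate 1), and its 3 most read genes, Fstl1 (0.77), Ltbp1 (0.53) and Id3 (0.29), were not called. The FGF and IGF list had 5 of 39 enriched and 3 depleted (1 enriched without replicate 1), with Igf1 at 0.55 and Igfbp7 at -0.76 outside the calls. In the Hedgehog list, 1 of 15 was enriched and 1 depleted, the coreceptor Boc (-1.02).

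Among transcription and chromatin genes several lists lay near the shares over all genes, 10.1% enriched and 14.3% depleted. Histone lysine methyltransferases and demethylases had 8 of 57 enriched and 5 depleted, or 5 enriched with either replicate left out and 3 depleted without the replicate block. The demethylase Kdm6b stood at 308 and 730.4 CPM in the input and 2062 and 2187 CPM in the IP libraries (log2 fold change 2.16, standard error 0.21, edgeR adjusted p = 2.77e-09), and Jmjd1c at 1.06. Chromatin remodelling and Polycomb genes had 17 of 89 enriched (10 without replicate 1) and 8 depleted, with Brd2 depleted (-1.5). Clustered histone genes had 9 of 37 enriched and 1 depleted. In the fit of all 32 libraries 5 were enriched, 2 without replicate 1 and 4 without replicate 2. Hist1h4d was at 2.12 and Hist1h2bc at 1.07, and this family has near-identical copies among which reads could be split. Klf, Sox and Fox factors had 7 of 49 enriched and 2 depleted, or 5 and 3 in the fit of all 32 libraries. Their median log2 fold change was 0.18 in that fit and 0.03 without replicate 1. Klf13 was enriched (1.15), and Sox9, the master factor of cartilage, was at -0.85 and was not called. Hox cluster genes had 0 of 27 enriched and 1 depleted, and splicing factors and RNA helicases had 19 of 120 enriched and 17 depleted (11 without replicate 2), with Ddx5 (-1.18) and Hnrnpk (-1.09) on the depleted side. Kinesins and dyneins had 9 of 56 enriched (4 without replicate 1) and 4 depleted, with the dynein light chains Dynlrb1 (2.09) and Dynll1 (1.48) enriched.

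Of 21 osteoblast factors and bone matrix genes, 3 were enriched and 3 depleted, near the shares over all genes. In the fit of all 32 libraries 5 were depleted, and the median log2 fold change was -0.38, against -0.42 without replicate 1. Beside Mgp the enriched ones were Bglap (2.52) and Bglap2 (2.39), near-identical osteocalcin genes among which reads could be split, and the depleted ones were Msx1 (-2.69), Sp7 (-1.82) and Alpl. Sparc (0.25) and Spp1 (-0.74), which bind mineral and collagen, were not called. Collagen chains had 5 of 41 enriched and 4 depleted, or 5 and 6 in the fit of all 32 libraries. Their median log2 fold change was -0.32 in that fit and -0.23 without replicate 1. Well-known noncoding RNAs had 10 of 20 enriched and 2 depleted (median 1.27; 6 enriched and a median of 0.86 without replicate 1), led in read count by Malat1 (1.53, standard error 0.15) and H19, which was at 373 and 736 CPM in the input and 2798 and 3310.2 CPM in the IP libraries (log2 fold change 2.54, standard error 0.18, edgeR adjusted p = 1.70e-11). Meg3, a further imprinted RNA, was at -0.43 and was not called. H19 and Meg3 overlap small RNA genes in exons, whose reads cannot be told apart from theirs.

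The m6A machinery and the genes that the study followed from SSC to THY were read as well. Of 9 writer genes, 4 were enriched and 0 depleted: Wtap at 77.7 and 80.6 CPM in the input and 290.2 and 286 CPM in the IP libraries (log2 fold change 1.86, standard error 0.21, edgeR adjusted p = 3.21e-08), Rbm15 (1.70), Rbm15b (1.47) and Mettl14 (1.14). The count was 2 in the fit of all 32 libraries, and 2 there with either replicate left out. Mettl3, the catalytic subunit, had 12.6 and 14.1 CPM in the input and 4.59 and 14.0 CPM in the IP libraries and was not called (log2 fold change -0.71, standard error 0.46, edgeR adjusted p = 0.247). Its 2 IP libraries stood apart, with counts of 85 and 254. Readers and erasers had 0 of 12 enriched and 2 depleted, the demethylase Fto (-1.37) and the reader Ythdf3 (-1.41), while Alkbh5 was at 0.55. Among the 7 genes that the study named for SSC against THY, Foxc1 (log2 fold change 1.84, standard error 0.36, edgeR adjusted p = 1.54e-04) and Foxo3 (1.17, standard error 0.23) were enriched. Klf4 (0.77) and Foxo1 (0.74) had positive ratios without reaching the call. Chst11 (-0.31), Spopl (-0.25) and Fem1b (0.06) were within 1 standard error of 0, and the list was chosen on these samples, so it is no independent evidence. For the lists with 0 calls in a direction, edgeR at an unadjusted p gave 0 as well, except 1 ribosomal protein gene depleted, 1 sorting antigen depleted and 1 Hox gene enriched, and DESeq2 gave 0 for each.

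The 65 enriched genes with hardly any input counts held a smaller share of protein-coding genes than those with ample input. They came from 487 tested genes with a mean input count under 10, of which 13.3% were enriched and 0 depleted. Such genes pass the filter on low counts only with the help of their IP counts, which favours high ratios. The median log2 fold change of all 487 was 3.22, and their gene types were not compared. In the 65 enriched genes the input counts did not exceed 19, with medians of 0 and 2. Their IP counts ran from 10 to 169, with medians of 28 and 47. Only 23 were protein coding, 37 were of other types and 5 had no match in the annotation, whereas 1246 of the 1416 with ample input were protein coding. In 20 of them both input libraries held 0 counts, so the ratio is a lower bound of 20.0 to 45.4-fold against a floor of 3 counts over both inputs. The 6 with the highest mean IP count were led by RP23-185A21.4, Jdp2 and Zbtb18. Jdp2, an AP-1 repressor, had counts of 6 and 11 in the input and 124 and 118 in the IP (log2 fold change 4.61, standard error 0.89, edgeR adjusted p = 1.48e-04), and the transcription factor Zbtb18 had 6 and 8 against 80 and 131. RP23-185A21.4 had 3 and 16 against 39 and 169. The olfactory receptor Olfr1387 had 4 and 2 against 127 and 28, so its IP libraries stood far apart. Zxdb and Slc6a20b were the others, and Slc6a20b, Jdp2 and Zbtb18 overlap another gene in exons. The size of this set varied with the settings: DESeq2 called 101, a single fit of all wild type libraries 25, and leaving out a replicate 3 to 5. Divided by the mean count over all 4 libraries, which does not favour high ratios, 5 of the 1607 lay under 10 and 1517 at 50 or more. No depleted gene had a mean input count under 10, where a fall cannot be seen.

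Enriched and depleted transcripts differed in features that the comparison did not use. For 11561 protein-coding genes with ample input and an annotated transcript of the nuclear genome, the median coding length was 888 bases in 1236 enriched, 1542 in 2152 depleted and 1416 in all genes. The relation was not a straight line. In the quintile of genes with the shortest coding sequence (111 to 771 bases), 25.2% were enriched and 8.08% depleted, in the middle quintile 4.58% and 26.9%, and in the longest quintile 11.9% and 13.8%. Without the cytosolic and mitochondrial ribosomal protein and oxidative phosphorylation genes, 438 of 2134 genes (20.5%) of the shortest quintile were still enriched. Base composition moved in 1 direction: the median GC content was 49.4% in enriched, 54.2% in depleted and 50.5% in all genes, and depletion went from 6.53% of the quintile with the lowest GC content to 33.1% of that with the highest. The rank correlation of GC content with the log2 fold change was -0.26. The part of length or base composition in the ratio was not tested.

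**Figure D4:**
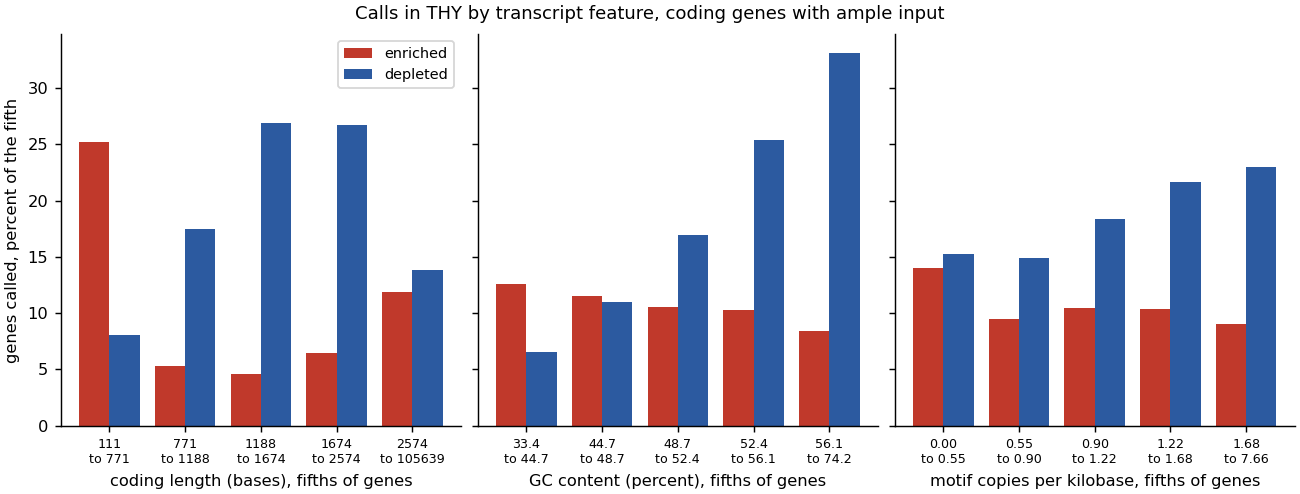
Percent of genes called enriched or depleted (y axis) in quintiles of coding length, GC content and copies of the m6A consensus per kilobase (x axes), for 11561 protein-coding genes with ample input. Enrichment is highest in the quintile of shortest coding sequence (25.2%) and depletion in the quintile of highest GC content (33.1%); depletion is also more frequent in the quintile with most consensus copies (23%) than in that with fewest (15.3%).

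The consensus was not denser in enriched transcripts. GGACT was counted on the sense strand of the longest coding transcript, where it stood 0.991 times per kilobase in the median of enriched, 1.18 in depleted and 1.05 in all genes (rank correlation with the log2 fold change -0.11). Enriched and depleted genes each held copies of the motif, some close to the stop codon and some far from it. With GGACT in capitals, the following is the copy nearest to the last coding base in 3 enriched and 3 depleted genes, read from GENCODE vM21 transcripts on GRCm38.
Lars2, enriched, position -31 from the last coding base: ctcccccaGGACTgccctcat
Fhl3, enriched, position 133: actcattgGGACTtcaggatt
Pan3, enriched, position 1016: aaggaacaGGACTtttgataa
Sapcd2, depleted, position -15: ggacctctGGACTccactttc
Serpinh1, depleted, position -287: atctggcaGGACTgggcctga
Prelp, depleted, position 322: tgggccatGGACTgacatctt
Negative positions lie in the coding sequence. Counts of copies overlapped between the groups: of the enriched genes Mgp, Lgals1 and Rpl5 had 0 in that transcript and Lars2 had 10, and of the depleted genes Errfi1 and Fmod had 1, Serpinh1 and Sapcd2 3 and Tnc 17. A match is a stretch of letters and not a measured site, and other forms of the consensus were not counted.

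Most of the THY pattern was shared by the other wild type populations. Of the 1387 enriched genes with ample input that could be tested in all 7 other populations, 1241 (89.5%) had a ratio above 0 in each, against 22.8% of all genes with ample input. Of 2186 depleted genes, 1941 (88.8%) were below 0 in each, against 34.9%. The median log2 fold change of the enriched genes was 1.57 in THY and 1.04 (BCSP) to 1.54 (6C3) elsewhere, and that of depleted genes -1.55 in THY and -1.56 (6C3) to -1.25 (BCSP) elsewhere. The genes were chosen by their values in THY, so its own median is a description. For ribosomal proteins the median of the members' median ratio in the other populations was 1.80, and for oxidative phosphorylation subunits 1.43.

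The difference itself was tested across all 32 wild type libraries, as the IP effect of THY minus the mean of the other 7. Of 25365 genes, 6 (0.0237%) had a higher ratio in THY and 7 (0.0276%) a lower one at an adjusted p under 0.05 and a difference beyond 1. Pam was higher by 1.01 (standard error 0.19, edgeR adjusted p = 0.00549), with a ratio of 2.67 in THY, 1.5 in SSC, 0.71 in pBCSP, 0.71 in BCSP and 1.62 to 2.36 in PCP, BLSP, 6C3 and HEC. Fhl3 was higher by 2.57 (standard error 0.55). Its ratio was below 0 in SSC (-2.32), pBCSP (-0.86) and BCSP (-0.41) and above 0 in PCP, BLSP, 6C3 and HEC (1.73 to 2.96). R3hdm4 and Tacc1, the latter a centrosome protein, had the same arrangement, below 0 in SSC, pBCSP and BCSP and above 0 in the other 5. Gm23935, annotated as a miRNA gene although reads of these libraries do not measure a mature miRNA, was higher by 1.61 and Gfra3, with 0 and 0 in the input and 11 and 20 in the IP, by 10.43, a fitted value that is no bound. In Pam, Fhl3, R3hdm4 and Tacc1 THY lay closest to HEC, and the difference from HEC alone was not tested.

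In the 7 genes with a lower ratio, THY lay below each of the other populations that could be tested. Trf, the iron carrier transferrin, had counts of 308 and 427 in the input and 8 and 8 in the IP, a log2 fold change of -4.75, whereas the 7 others lay between -2.51 and -1.52 (difference -2.91, standard error 0.43, edgeR adjusted p = 1.22e-05). Car3, a carbonic anhydrase abundant in fat and muscle, had 17 and 95 in the input and 0 and 0 in the IP. That was at least 21.1-fold lower against the floor of 3 counts, and the ratios in the others were -0.54 to 0.45. The hindlimb factor Pitx1 was at -3.33 (others -2.13 to -0.09) and the adaptor Gab1 at -2.05 (others -1.31 to 0.05). Arhgef28 was at -1.88 and Sepn1 at -0.54 in THY, where neither was called, and Hcar2 had 88 and 107 in the input against 0 and 2 in the IP. Without the block of pairs edgeR called 0 genes in either direction, with 305 higher and 323 lower at an unadjusted p under 0.05. With genes under a mean of 50 counts left out it also called 0 in either direction, with 93 higher and 147 lower at an unadjusted p.

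**Figure D5:**
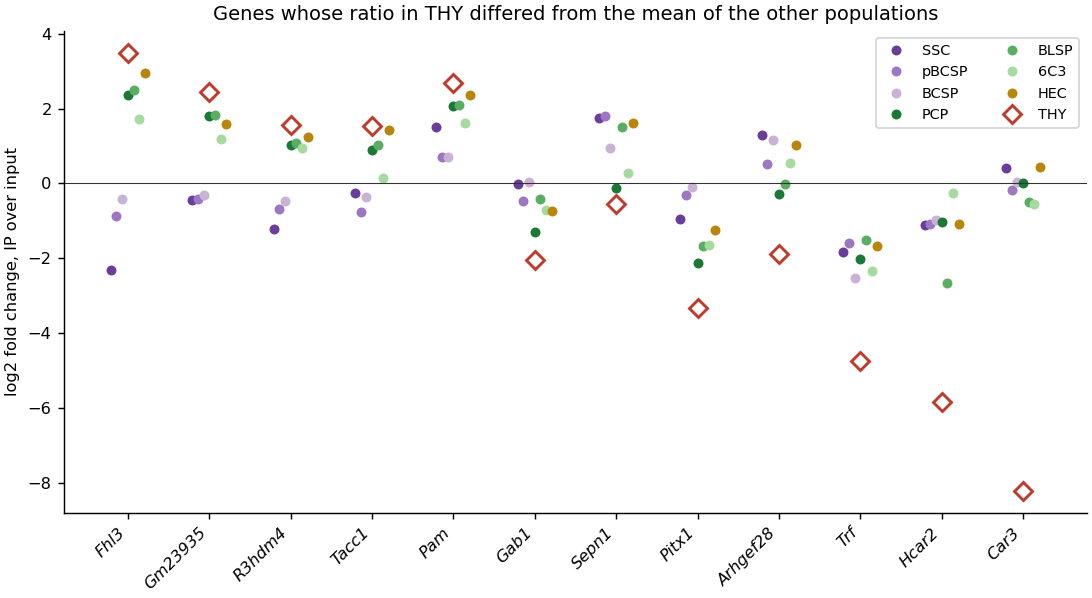
Log2 fold change of IP over input (y axis) in THY (open diamonds) and the other 7 wild type populations (filled points) for the 12 genes with ample THY input whose ratio differed from the mean of the others. The first 5 genes are higher in THY, where SSC, pBCSP and BCSP lie lowest; the last 7 are lower in THY, with Car3 at 0 counts in both THY IP libraries.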

How the data were processed

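SLIM-seq was analysed in the 2 IP and 2 input libraries of wild type THY, with the other 28 wild type libraries for the test of differences between populations. The authors trimmed reads with fastp 0.20.1, aligned them to GRCm38 with HISAT2 2.2.1 and counted them per gene with featureCounts 2.0.1, and the deposited values are raw counts. Whether counting used strand is not given in the sources used here. Tables of the authors' own comparisons, with fold changes and p-values, were not used. Of 46959 entries, 128 that share the names 1-Mar and 2-Mar (at most 0.307% of the counts of a THY library) were left out, which left 46831 genes. Of these, 44687 matched 1 gene of GENCODE vM21.

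The count tests were run in R 4.3.3: edgeR 4.0.16 (quasi-likelihood test, TMM, filterByExpr, replicate number as a block) and DESeq2 1.42.0. Features and figures were made in Python 3.11.15 with pandas 2.3.3, scipy 1.17.1 and matplotlib 3.10.9. The standard error of a log2 fold change is its size over the root of its F statistic. CPM were scaled by TMM; logs of CPM had 2 counts added as prior. A floor of 3 counts covers counting error alone, as reads were not collapsed to molecules. The pairing by replicate number was inferred from the study's division of sorted cells of 1 batch. As a check, the gene-wise replicate difference of the IP was compared with that of the input (correlation 0.184). On simulated THY counts (15122 genes fitted, 100 changed 2-fold and 100 changed 4-fold), edgeR recovered 29% and 65% and called 11 unchanged genes. These calls used an adjusted p under 0.05 alone, without the threshold on the log2 fold change. The simulated counts held no replicate effect, and far fewer genes were changed than were called in the data.

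The text names the 10 highest and 10 lowest protein-coding genes with ample input, the 8 most read called in each direction, the 6 enriched genes with hardly any input and most IP counts, the 4 highest and lowest that are not protein coding (in part), the 3 most read members of each list (all where at most 8, in part), the 5 farthest from the other populations in each direction, and genes named by the study. Members, lists and rules were chosen with earlier results of these data known, and no set test was run. The alternatives tried were no replicate block, the Wald test of DESeq2, its size factors in edgeR, scaling by library size, all genes without a filter, a mean of at least 50 counts, 1 fit of all 32 wild type libraries, division by the mean count over all 4 libraries, the median over all transcripts of a gene, and leaving out each replicate.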

Additional observations from a re-analysis of the deposited data

Results flagged for a closer look

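In 13 genes the ratio of IP to input in THY differed from the mean of the other 7 wild type populations in a test of the difference itself, 6 higher and 7 lower. Without the replicate block, and with genes under a mean of 50 counts left out, edgeR called 0 in either direction (305 and 323, and 93 and 147, at an unadjusted p). On the log2 scale the difference was 10.43 for Gfra3, 2.57 for Fhl3, 1.61 for Gm23935, 1.20 for R3hdm4, 1.17 for Tacc1 and 1.01 for Pam. It was -1.61 for Gab1, -1.73 for Sepn1, -2.27 for Pitx1, -2.54 for Arhgef28, -2.91 for Trf, -4.67 for Hcar2 and -8.38 for Car3. Gfra3 had 0 counts in both THY input libraries and Car3 0 in both THY IP libraries, so their fitted differences depend on the prior count. With 2 libraries per group, no library could be tested as an outlier.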

How the results depend on the processing

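Of the counts of calls, the number of depleted genes stayed within 1.5 times its value of 2271 under each setting (1787 to 2645). With a replicate left out, the other wild type populations give the spread, so the values to compare are those of the fit of all 32 wild type libraries: 642 to 1039 genes were enriched (1122 with both replicates), 843 to 1379 were tagged at the study's thresholds (1363), and 626 to 1015 were enriched with ample input (1050). Enriched genes with a mean input count under 10 numbered 101 by DESeq2, 4 with a mean of at least 50 counts, 25 in the fit of all 32 wild type libraries, 5 by the mean count over all 4 libraries, and 3 to 5 with a replicate left out. For the difference from the other populations, the counts higher and lower were 0 and 0 without the replicate block, 11 and 16 by DESeq2, 15 and 21 with no filter, and 0 and 0 with a mean of at least 50 counts, where edgeR gave 93 and 147 at an unadjusted p; 13 were higher with DESeq2's size factors, and with a THY replicate left out 3 to 8 were higher and 15 to 32 lower. The cause was not tested. Col1a1 was at -0.14 with library size alone, -0.14 with no filter, -0.11 in the fit of all wild type libraries, -0.37 without replicate 1 and 0.10 without replicate 2. Under the same settings in the same order, Fem1b was at -0.0904, -0.0945, -0.0662, -0.0103 and -0.16, and Cd200 at -0.0780, -0.0818, -0.0551, -0.21 and 0.0687. Id3 was at -0.20 without replicate 1 and 0.48 without replicate 2. No other gene given with a fold change turned its direction under these settings. With the replicate block left out, no other count over all genes moved by over 1.5 times, but blood cell markers had 3 enriched (from 7), and depleted genes numbered 2 in the Notch list (from 4), 5 in the TGF-beta and BMP list (from 8) and 3 among histone lysine methyltransferases and demethylases (from 5). Depth limits genes with few input counts, in which a depletion cannot be seen.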

Other observations

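Several types of genes that are not protein coding had higher medians, but the types were not compared at equal input counts. Over all types, the median log2 fold change was 3.22 at a mean input count under 10. It was 0.43 from 10 to under 50 and -0.25 at 50 or more. The part of input counts in the difference between types was not tested. The median log2 fold change was -0.24 in 13302 protein-coding genes, 0.87 in 273 lincRNA, 1.13 in 434 processed pseudogenes and 1.43 in 461 genes of the type TEC (an annotation class of transcripts without an experimental test). Of the processed pseudogenes 8.76% were enriched and 2.07% depleted, and of the TEC genes 16.5% and 1.30%. Processed pseudogenes can share reads with their parent genes.

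Among genes with a mean of 10 to under 50 counts over the 4 libraries, 658 of 3426 had 0 counts in 1 IP library and at least 10 in the other, against 140 for the 2 input libraries. At a mean of 50 to under 200 counts the numbers were 78 and 2 of 3135 genes.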
